A study of Bos taurus with 40 samples.

Results

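The genes described here are the WNT, FGF, BMP and GDF ligands of cattle that are in the count tables. They were taken as every gene symbol made of WNT, FGF, BMP or GDF followed by a number and at most 1 letter. The kinase gene BMP2K was left out. The rule found 43 of the 13570 genes in the count tables, 17 FGF, 12 WNT, 7 BMP and 7 GDF genes. It used the symbols alone and no measured value. RNA-seq reads were counted in liver, abdominal fat, longissimus dorsi muscle (a muscle of the back) and pituitary gland of 5 cows and 5 bulls, giving 40 libraries, as every animal gave 1 for each tissue. The animals were Korean cattle, a beef breed, slaughtered at more than 22 months of age. Each library came from a piece of whole tissue, so a gene's level is a sum over all the cell types in it, and fewer cells of a type cannot be told apart from less RNA per cell. The study asked which genes differ between the sexes within each tissue and over the tissues, and these questions were put to the ligands after their levels in the 4 tissues had been described.

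The ligands belong to growth factor families that carry signals between cells in the embryo and in adult tissues. Most FGFs leave the cell and bind FGF receptors, which are tyrosine kinases, with heparan sulfate or a Klotho protein as a partner, whereas FGF11, FGF12, FGF13 and FGF14 stay inside the cell and are known for binding voltage-gated sodium channels. BMPs and most GDFs are dimers of the TGF-beta superfamily that join type I and type II receptor kinases, which pass the signal on through SMAD proteins. WNTs are lipid-modified proteins that bind Frizzled receptors and either stabilise beta-catenin or act through other routes. In fat these families are known for steering the formation of adipocytes, in muscle for growth and repair, in liver for iron and bile acid control, and in the pituitary gland for its outgrowth in the embryo.

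Between 5173092 and 19165864 reads were counted on genes per library (median 10005607), and levels are given as CPM, a gene's reads scaled to a common library total after TMM scaling. A count of 3 reads, the least taken as a detectable level, was worth 0.132 to 0.793 CPM. The defining markers stood with the labels, since liver was highest for all 7 hepatocyte genes found, fat for all 5 adipocyte genes, muscle for all 7 muscle fibre genes and pituitary gland for all 9 hormone or endocrine genes. The liver library labelled bull 3 went against its label, with 1401 CPM of XIST, the RNA of the inactive X chromosome, and no read of the Y-linked DDX3Y, USP9Y or ZFY, while the other male livers held at most 0.936 CPM of XIST. Over all genes it was closest to the liver of cow 4, which held 1450 CPM of XIST. Their correlation (r = 0.993, log2 scale) was the highest of all pairs of libraries within a tissue. Whether these 2 livers came from separate animals was not tested. The fat library of bull 5 had little XIST (1.39 CPM) but also only 1.78 CPM of USP9Y, against 28.1 to 34.1 CPM in the fat of the other bulls. The main tests were also run without both libraries. Changes in ligand calls for 1 tissue, for sex or for the interaction of sex and tissue are given.

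Of the 43 ligand genes, 33 reached 3 reads in at least 1 library and 25 had a mean of 1 CPM or more in at least 1 tissue. Fat passed that mean for 20 of them, muscle for 18, pituitary gland for 16 and liver for 11, and 6 genes (FGF1, FGF2, FGF12, FGF14, BMP2 and BMP4) reached that mean in all 4. By mean level, fat was highest for 14 of the 25, liver and muscle for 4 each and pituitary gland for 3. Shares of all genes are not given for these counts. The summed level of the 43 genes was 398 ± 99.1 CPM in fat (SD, n = 10), 258 ± 34.1 CPM in pituitary gland, 204 ± 44.9 CPM in muscle and 106 ± 19.5 CPM in liver. Such a sum follows its most abundant genes, which in fat were FGF1 (mean 94.8 CPM), FGF2 (75.1 CPM) and FGF10 (68.5 CPM). The colour map of mean levels shows these patterns gene by gene.

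**Figure D1:**
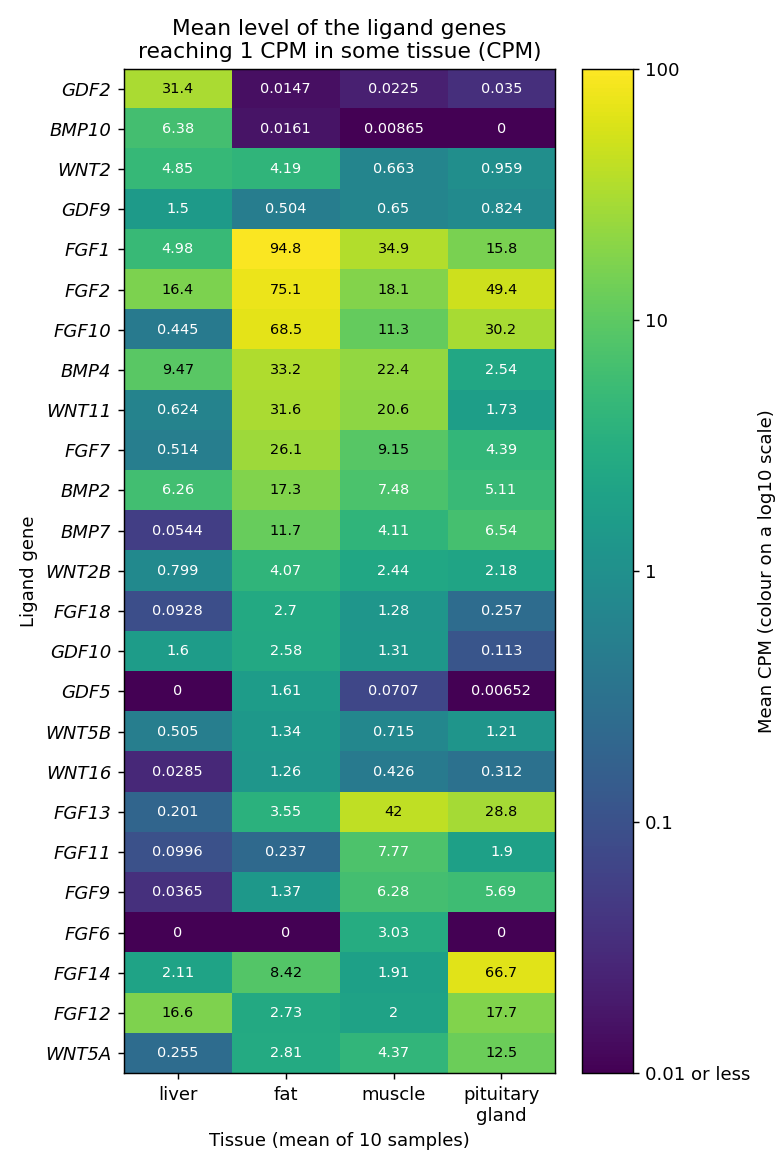
Mean CPM (10 samples per tissue, printed in each cell) of the 25 ligand genes that reach 1 CPM in some tissue, by gene (rows) and tissue (columns), with colour on a log10 scale. Rows are read across, since levels of different genes are not scaled for gene length; GDF2 and BMP10 stand out in the liver column, FGF6 in the muscle column, and 14 of the 25 genes have their highest mean in the fat column.

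A ligand was called higher in 1 tissue when the edgeR likelihood ratio test (LRT) put it above each of the other 3 tissues with an adjusted p under 0.05 and at least 2-fold. This held for 15 of the 43 ligands, against 37.1% of all 13148 tested genes, and for 12 of the 25 ligands with a mean of 1 CPM, against 38.9% of the genes at that level. Fat had 7 such ligands (6.95% of all genes were called there), pituitary gland 4 (12.0%), liver 2 (10.1%) and muscle 2 (8.10%). In 5 ligands all 10 samples of 1 tissue lay above all 30 others, which 19.3% of all genes did. These were GDF2 and BMP10 in liver (5.78% of all genes), GDF5 in fat (1.60%), FGF6 in muscle (4.65%) and FGF14 in pituitary gland (7.23%). The plot of single samples shows the 12 ligands with a mean of 1 CPM in their tissue.

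**Figure D2:**
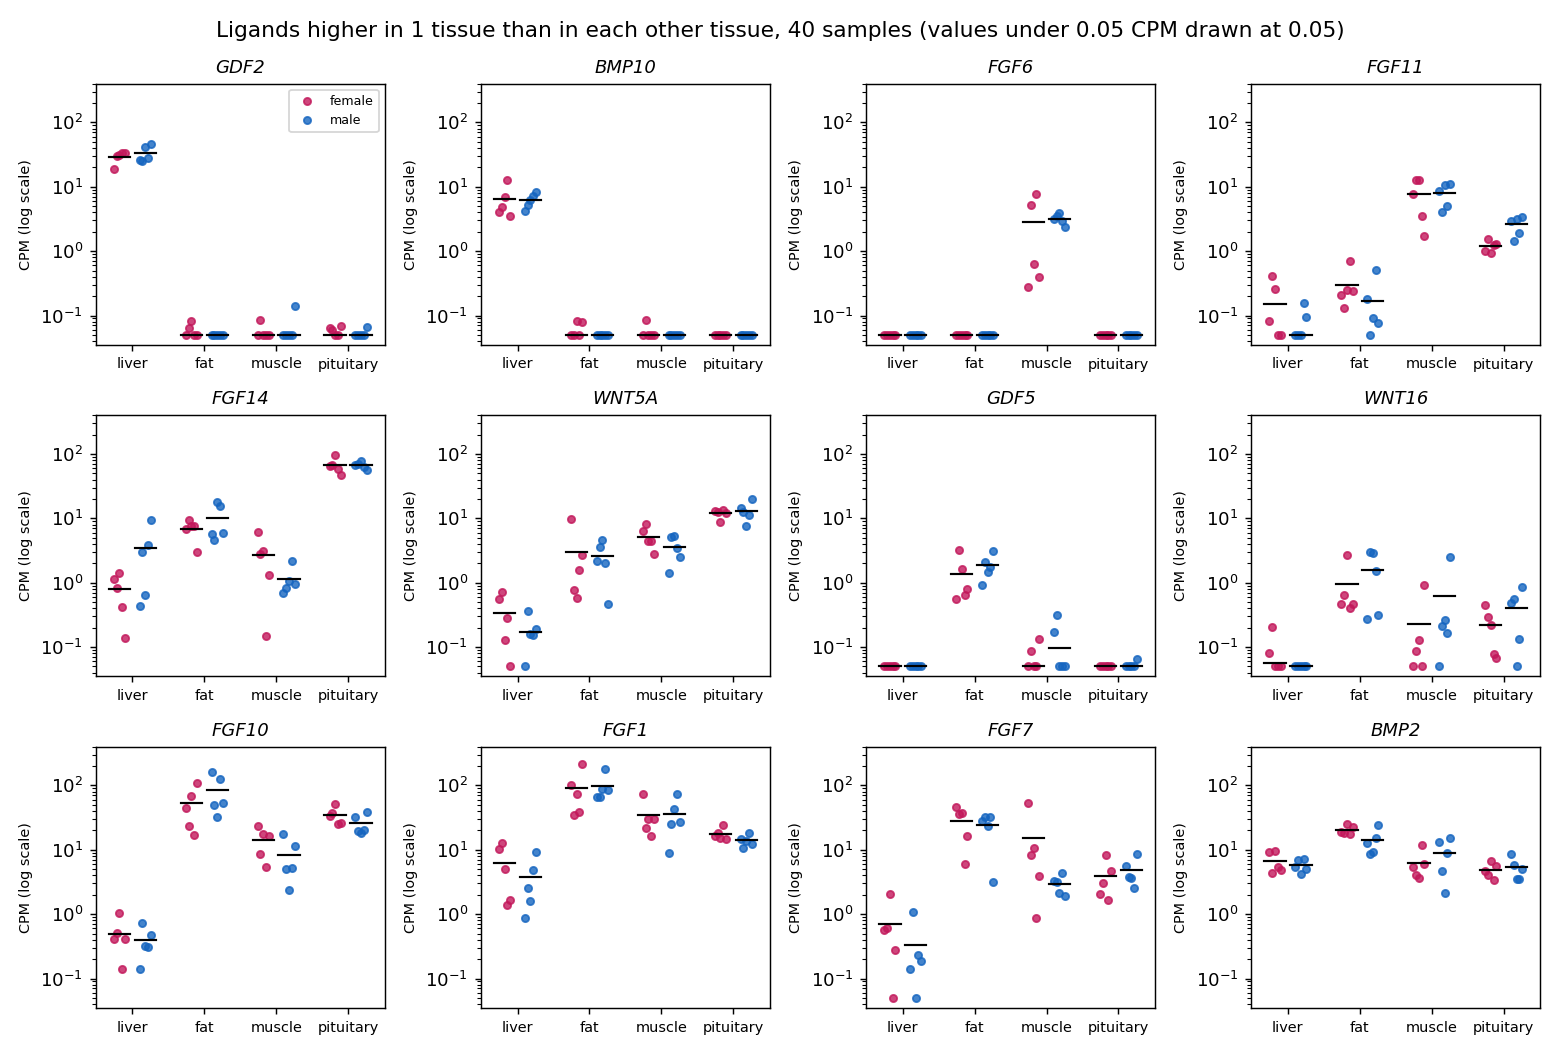
CPM on a log scale in each of the 40 samples for the 12 ligands called higher in 1 tissue with a mean of at least 1 CPM there, by tissue, with cows and bulls in separate columns of points; the lines are means of 5 and values under 0.05 CPM are drawn at 0.05. GDF2, BMP10, FGF6, GDF5 and FGF14 have 1 tissue clear of the others, whereas FGF1, FGF7, FGF10 and BMP2 are present in several tissues with overlapping points.

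Liver stood apart by GDF2 and BMP10. GDF2, also called BMP9, is a ligand that circulates in blood and binds the endothelial receptor ACVRL1. In liver it lay at 18.7, 29.9, 31.1, 33.3 and 33.8 CPM in cows and 26.2, 25.2, 42.1, 28.1 and 45.9 CPM in bulls 1 to 5. No library of another tissue held more than 1 of its reads, and in all they numbered 2 in fat, 2 in muscle and 6 across pituitary gland. Set against pituitary gland, the next tissue, the pooled level in liver was 813-fold (95% counting interval 373 to 2216, LRT adjusted p = 2.25e-130).

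BMP10, the closest relative of GDF2 and another ligand of ACVRL1, gave 3.55 to 12.9 CPM in liver (median 5.74). It had 2 reads in all of fat, 1 in all of muscle and none in pituitary gland. The pooled level in liver was 451-fold that in fat (interval 124 to 3734, LRT adjusted p = 7.87e-51) and at least 14.4-fold the floor of 3 reads, 0.443 CPM, set for tissues at 0. Both liver calls stood without the liver of bull 3 and the fat of bull 5, at log2 differences of 9.29 for GDF2 and 7.92 for BMP10. In those 38 libraries GDF15, a stress-responsive ligand that is known to act on appetite, joined them as a further liver call, and it also did so without cow 4. Its mean in the 40 libraries was only 0.402 ± 0.350 CPM in liver and 0.189 ± 0.242 CPM in fat, so that result rests on few reads.

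WNT2 and GDF9 also had their highest means in liver but were not called there. WNT2, known as a WNT of liver endothelial cells, was at 3.07 to 7.57 CPM in liver and 1.47 to 8.05 CPM in fat, so the range of liver lay inside that of fat (log2 liver to fat 0.22, SE 0.307, LRT adjusted p = 0.551). It was lower in both muscle (0.663 ± 0.365 CPM) and pituitary gland (0.959 ± 0.322 CPM). GDF9, best known as an oocyte factor, was at 1.5 ± 0.835 CPM in liver against 0.824 ± 0.335 CPM in pituitary gland, a log2 difference of 0.80 (SE 0.329, adjusted p = 0.0241) that falls short of 2-fold.

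The cell type markers of the liver libraries bear on where these reads came from, although their part was not tested. The hepatic stellate list was LRAT, RELN, HAND2, DES and PDGFRB, the last also a stroma marker. Of the 4 found, 2 were highest in liver, 1 in fat and 1 in muscle. They summed to 143 to 239 CPM in liver, to 228 to 1443 CPM in fat and to 6326 to 16788 CPM in muscle. A sum follows its most abundant gene, so these sums do not compare stellate cells between tissues. The 6 endothelial markers summed to 350 to 874 CPM, and 2 of them were highest in liver. The 7 leukocyte markers were all highest in liver and summed to 468 to 886 CPM.

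Fat held the most ligands. The secreted FGFs FGF1, FGF7 and FGF10, the BMP family ligands BMP2 and GDF5, and WNT16 were each higher there than in every other tissue, and so was FGF16 at a low level. FGF1 is a secreted factor that can bind all FGF receptors and is known for its role in fat tissue remodelling. It ran from 34.1 to 212 CPM in fat (median 78.7), from 8.86 to 73.7 CPM in muscle, from 10.5 to 24.6 CPM in pituitary gland and from 0.858 to 12.6 CPM in liver. Fat and muscle samples overlapped, and fat was higher by a log2 difference of 1.45 (SE 0.368, LRT adjusted p = 0.000296). Each further step down, from muscle to pituitary gland (log2 1.15, adjusted p = 0.00398) and from there to liver (log2 1.66, adjusted p = 3.27e-05), also passed the test.

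FGF10 and FGF7 are close relatives that signal from mesenchyme to epithelium through a splice form of FGFR2, and FGF10 is also known for the formation of adipocytes. FGF10 was at 17.1 to 159 CPM in fat (median 52.1) and 18 to 51.1 CPM in pituitary gland (median 29.4). Muscle held 2.38 to 23.6 CPM of it and liver no more than 1.02 CPM. The order fat, pituitary gland, muscle, liver passed the test at each step, with a log2 difference of 1.22 (SE 0.346, LRT adjusted p = 0.00119) from fat to pituitary gland. FGF7 was at 3.17 to 46.5 CPM in fat (median 30.05) and 0.887 to 53.0 CPM in muscle (median 3.62). The muscle of cow 1 alone was above every fat library for FGF7. Fat was higher than muscle by a log2 difference of 1.77 (SE 0.513, adjusted p = 0.00232), and muscle and pituitary gland (1.64 to 8.61 CPM) were not told apart (log2 0.73, SE 0.515, adjusted p = 0.231).

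BMP2, which induces bone and cartilage and commits stem cells to the fat lineage, was at 8.53 to 25.5 CPM in fat (median 17.8). Muscle held 2.12 to 15.2 CPM, liver 4.19 to 9.73 CPM and pituitary gland 3.43 to 8.65 CPM. Fat was above muscle by 1.2 on the log2 scale (SE 0.268, LRT adjusted p = 3.08e-05). None of the 3 comparisons among muscle, liver and pituitary gland passed (adjusted p of 0.0632 to 0.418).

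GDF5, a joint and cartilage factor that is also studied in brown fat, was the fat ligand with the clearest separation. It lay at 0.566, 3.18, 1.64, 0.638 and 0.787 CPM in the fat of cows 1 to 5 and at 0.905, 2.10, 1.46, 1.77 and 3.09 CPM in that of bulls 1 to 5. The highest sample of the other tissues was a muscle library at 0.315 CPM, no liver library had a read, and pituitary gland had 1 read in all. The pooled level in fat was 19.5-fold that in muscle (interval 8.82 to 53.7, LRT adjusted p = 4.43e-12) and at least 3.64-fold the floor set for liver.

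WNT16, a WNT best known in bone, was at 0.271 to 2.99 CPM in fat (median 0.561). In muscle, 7 of 10 libraries had a read, and the largest value, 2.49 CPM in bull 5, was inside the range of fat. Its difference to muscle was 1.58 on the log2 scale (SE 0.679, LRT adjusted p = 0.0325). Leaving out 1 animal lost this call for cows 1, 2, 3 and 4 and bulls 2, 3 and 4 (log2 1.17 to 1.52, adjusted p of 0.0511 to 0.143). FGF16, a secreted relative of FGF9, was at 0.967 ± 0.768 CPM in fat against 0.295 ± 0.32 CPM in muscle (adjusted p = 0.00681), with no read in liver, against whose floor fat was at least 2.18-fold higher.

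A further set of ligands had its highest mean in fat without being called there, either because fat led by less than 2-fold or because it was not told apart from the next tissue. FGF2, the basic FGF, was at 30.6 to 138 CPM in fat (median 69.9) and 31.2 to 71.5 CPM in pituitary gland (median 46.7). Fat was higher by a log2 difference of 0.60 (SE 0.218, LRT adjusted p = 0.0107), a call that was lost without bull 3 (adjusted p = 0.0562). Muscle and liver had a common lower level of FGF2, at medians of 17.3 CPM each (log2 0.15, SE 0.224, adjusted p = 0.579).

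BMP4, which patterns the embryo and promotes the white fat lineage, was at 18.4 to 44.3 CPM in fat, 12.7 to 32.6 CPM in muscle, 6.29 to 12.1 CPM in liver and 0.858 to 5.94 CPM in pituitary gland. Every pituitary sample was below every liver sample. The upper step was small, at a log2 difference of 0.56 between fat and muscle (SE 0.225, LRT adjusted p = 0.0221), and it was lost without cow 3, cow 4, bull 1, bull 2 or bull 3 in turn (adjusted p of 0.0545 to 0.0719). The step from liver to pituitary gland was 1.90 (SE 0.238, adjusted p = 2.93e-14).

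WNT11, which acts mostly without beta-catenin and guides cell movement, was high in fat (8.42 to 62.7 CPM, median 27.7) and muscle (6.07 to 45.5 CPM, median 16.6). The 2 tissues were not told apart (log2 0.62, SE 0.340, LRT adjusted p = 0.106). Pituitary gland at 0.797 to 2.51 CPM and liver at 0.179 to 1.84 CPM lay below all 20 of those samples.

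BMP7, known for kidney formation and for brown fat, was at 2.71 to 42.5 CPM in fat, 2.42 to 12.2 CPM in pituitary gland and 1.65 to 7.23 CPM in muscle, and in liver it gave 4 reads in all. Muscle was above liver by 6.16 on the log2 scale (SE 0.827, LRT adjusted p = 1.20e-21). FGF18, a factor of cartilage and bone, was at 2.7 ± 2.2 CPM in fat and 1.28 ± 0.888 CPM in muscle (adjusted p = 0.114), and it became a fat call without the liver of bull 3 and the fat of bull 5. WNT2B, a beta-catenin WNT, was higher in fat (4.07 ± 0.920 CPM) than in muscle (2.44 ± 1.32 CPM, adjusted p = 0.0168) by less than 2-fold.

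WNT5B and GDF10 had no tissue that led by test. WNT5B, a relative of WNT5A, was at 1.34 ± 1.06 CPM in fat, 1.21 ± 0.712 CPM in pituitary gland, 0.715 ± 0.522 CPM in muscle and 0.505 ± 0.656 CPM in liver, and no neighbours in that order were told apart (LRT adjusted p of 0.173 to 0.799). Liver was lower than fat (adjusted p = 0.0173) and than pituitary gland (adjusted p = 0.0390). GDF10, also called BMP3B, was at 2.58 ± 4.10 CPM in fat, 1.60 ± 0.825 CPM in liver and 1.31 ± 1.44 CPM in muscle, with no neighbouring pair told apart, and it was near 0 in pituitary gland (0.113 ± 0.144 CPM).

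Several cell type markers moved with the fat libraries. All 7 fibroblast and stroma markers were highest in fat, where they summed to 8882 to 46284 CPM against 2752 to 9791 CPM in muscle, 541 to 1719 CPM in pituitary gland and 400 to 760 CPM in liver. The 5 adipocyte markers summed to 6910 to 26206 CPM in fat and to at most 1215 CPM in any other library. Of the 6 endothelial markers 4 were highest in fat, with a sum of 1339 to 2500 CPM. The part of each cell type in the levels of the fat ligands was not tested.

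In muscle, FGF6 and FGF11 were called, and FGF13 and FGF9 were high there together with pituitary gland. FGF6 is a secreted FGF known from muscle formation and regeneration. No read of it was counted in any of the 30 other libraries. In muscle it lay at 0.276, 5.28, 0.635, 7.68 and 0.394 CPM in cows 1 to 5 and at 3.13, 3.57, 3.97, 2.98 and 2.35 CPM in bulls 1 to 5. The cows thus fell into low and high values with the bulls between them. The mean in muscle, 3.03 ± 2.32 CPM, was at least 6.83-fold above the floor set for each other tissue, with LRT adjusted p of 1.40e-16 or less.

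FGF11, one of the intracellular FGFs, was at 1.71 to 12.7 CPM in muscle (median 8.20) and 0.942 to 3.39 CPM in pituitary gland (median 1.5). Muscle was higher by 2.05 on the log2 scale (SE 0.370, LRT adjusted p = 2.93e-07), and 1 muscle library, that of cow 5, lay inside the pituitary range. Fat and liver reached at most 0.696 CPM. FGF13, the intracellular FGF best known from neurons and heart, was at 19.4 to 60.9 CPM in muscle and 23.0 to 37.8 CPM in pituitary gland. All 20 of these samples were above the 20 of fat (1.08 to 6.90 CPM) and liver (0.0808 to 0.384 CPM). The difference between muscle and pituitary gland was small (log2 0.54, SE 0.242, LRT adjusted p = 0.0402) and was lost with RLE factors (adjusted p = 0.0904), with DESeq2 (0.0848), without the 2 doubted libraries (0.0952) and without any 1 of 7 animals (0.0511 to 0.153).

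FGF9, a secreted FGF that muscle and nerve tissue are known to make, was at 2.12 to 12.3 CPM in muscle and 4 to 8.24 CPM in pituitary gland. Their difference was 0.15 on the log2 scale (SE 0.362, LRT adjusted p = 0.743). Fat held 1.37 ± 1.05 CPM, and liver gave 4 reads in 10 libraries.

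The pituitary gland was set apart by FGF14 and WNT5A, and at low level by FGF20 and FGF22. FGF14, an intracellular FGF that tunes sodium channels and neuronal firing, lay at 66.0, 66.5, 96.5, 57.5 and 47.8 CPM in cows 1 to 5 and at 67.4, 70.0, 77.7, 61.7 and 56.2 CPM in bulls 1 to 5. Fat came next at 2.99 to 17.9 CPM, followed by liver (0.137 to 9.25 CPM) and muscle (0.148 to 6.07 CPM). The lowest pituitary value was thus above the highest of the 30 others. The difference to fat was 3.02 on the log2 scale (SE 0.427, LRT adjusted p = 2.64e-10), and liver and muscle were not told apart (log2 -0.00, SE 0.457).

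WNT5A, a WNT that acts mainly without beta-catenin and takes part in pituitary shape in the embryo, was at 7.71 to 20.2 CPM in pituitary gland (median 12.5). Muscle held 1.39 to 8.04 CPM and fat 0.464 to 9.63 CPM, and in each of these tissues 1 library lay inside the pituitary range, the muscle of cow 2 and the fat of cow 1. Liver held at most 0.715 CPM. The difference to muscle was 1.55 (SE 0.376, LRT adjusted p = 0.000118), and muscle and fat were not told apart (adjusted p = 0.154).

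FGF20 and FGF22 are secreted FGFs known from the nervous system. FGF20 had reads in all 10 pituitary libraries (0.130 to 1.07 CPM, at most 22 reads) and only 1 read in the 30 others, in liver. The pooled ratio to liver was 64.4 with a wide counting interval of 11.3 to 2565, and the LRT adjusted p was 8.78e-13. FGF22 was at 0.740 ± 0.200 CPM in pituitary gland and 0.264 ± 0.205 CPM in fat (log2 1.45, SE 0.368, adjusted p = 0.000104).

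FGF12, the remaining intracellular FGF, was shared by pituitary gland and liver. It was at 5.02 to 33.3 CPM in pituitary gland (median 17.5) and 7.09 to 30.5 CPM in liver (median 12.1). The log2 difference was 0.10 (SE 0.313, LRT adjusted p = 0.801). Fat at 1.16 to 5.31 CPM and muscle at 1.03 to 4.55 CPM were both lower, with liver above fat by 2.55 (SE 0.32, adjusted p = 2.34e-13). Each of the 4 intracellular FGFs therefore had its own pattern, FGF14 in pituitary gland, FGF11 in muscle, FGF13 in both of these and FGF12 in pituitary gland and liver.

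Markers of other cells in the pituitary libraries were low next to those of the endocrine cells, which summed to 84304 to 287999 CPM. The 5 markers of glia and the neural lobe found, of which 3 were highest in pituitary gland, summed to 68.7 to 177 CPM there and to more in fat (305 to 1123 CPM). The larger sum in fat came from few of them. A mean of 1 CPM was reached by 4 of the 5 in pituitary gland but by 2 in fat, where only 1 was highest. The 3 mesothelial markers summed to 49.6 to 268 CPM in pituitary gland. Epithelial markers listed for bile duct, which are shared by many epithelia, were all 4 highest in pituitary gland (421 to 2861 CPM). Their part in the pituitary levels was not tested.

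Comparing pairs of tissues, 26 of the 43 ligands differed between fat and liver, 21 higher in fat and 5 in liver (65.1% of all genes differed, 35.8% higher in fat and 29.2% in liver). Between liver and pituitary gland 22 were higher in pituitary gland and 6 in liver (65.4% of all genes, 35.6% and 29.7% by direction), and between liver and muscle 20 were higher in muscle and 6 in liver (62.8%, 34.4% and 28.4%). Fat against muscle gave 14 higher in fat and 5 in muscle (60.4%, 33.3% and 27.1%). Fat against pituitary gland gave 15 higher in fat and 9 in pituitary gland (65.6%, 32.3% and 33.3%). Muscle against pituitary gland gave 10 and 7 (64.9%, 32.0% and 33.0%). By these counts a larger share of the ligands than of all genes was higher in fat, muscle or pituitary gland than in liver, a difference that was not tested. With values under the floor of 0.443 CPM set to it, genes low in both tissues are at 0, which holds the median log2 difference at 0 for the ligands and for all genes in each of the 6 pairs. Away from 0, 20 ligands were higher in fat and 5 in liver, 16 in muscle and 7 in liver, and 17 in pituitary gland and 7 in liver. The 6 comparisons share their samples.

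The 18 ligands under a mean of 1 CPM in each tissue include 10 that never reached 3 reads in a library, namely BMP8A, BMP15, FGF4, FGF5, FGF8, GDF7, WNT1, WNT3, WNT7A and WNT8A. Most of these are known from the embryo, and BMP15 from the oocyte. BMP3, FGF16, FGF20, FGF22, GDF6, GDF15, WNT6 and WNT10A make up the rest. Of these 8, WNT6 reached 3 reads in 9 libraries each of fat and pituitary gland and in 3 of muscle, whereas WNT10A did so in 4 pituitary libraries and GDF6 in 3 libraries each of fat and muscle. All 43 symbols were found in RefSeq's cattle annotation, made on another assembly (ARS-UCD2.0) than the one the reads were aligned to (bosTau7). That annotation holds 62 symbols of this form, and 19 of them are not in the count tables. Nothing can be said here of the levels of those 19, and they are missing from every count and sum of ligands. In that annotation GDF2 and GDF10 are neighbours, as are WNT6 and WNT10A. GDF10 was found in liver, fat and muscle and GDF2 in liver alone, while WNT6 (0.480 CPM in fat, 0.470 CPM in pituitary gland) and WNT10A (0.113 CPM in pituitary gland) were low throughout. FGF2 overlaps NUDT6, WNT2B overlaps ST7L and WNT5B overlaps FBXL14 there, so their counts are uncertain where counting did not use strand. NUDT6 was at means of 1.18 to 3.21 CPM and lowest in fat, where FGF2 was highest, but ST7L (30.1 to 66.3 CPM) and FBXL14 (13.4 to 45.8 CPM) were well above their partners in each tissue.

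Receptors, inhibitors and targets were read against the 37.1% of all genes that were higher in 1 tissue. Of 7 FGF receptor and co-receptor genes 6 were higher in 1 tissue, 4 of them in liver, 1 in fat and 1 in pituitary gland. FGFR1, the main FGF receptor of mesenchymal cells, was at 332 to 526 CPM in fat against 71.9 to 188 CPM in muscle (log2 1.87, SE 0.181, LRT adjusted p = 1.88e-22). FGFR2 was at 49.8 to 119 CPM in liver and 24.5 to 51.0 CPM in pituitary gland (log2 1.38, SE 0.266, adjusted p = 8.93e-07). KLB, the co-receptor of endocrine FGFs, was at 54.1 to 152 CPM in liver and 3.05 to 66.8 CPM in fat (log2 1.68, SE 0.356, adjusted p = 1.21e-05). Fat, where FGF1, FGF7 and FGF10 were highest, thus also had the most FGFR1, whereas FGFR2 had a mean of 12.8 ± 5.86 CPM in fat and 0.487 ± 0.282 CPM in muscle.

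Of the 15 WNT receptor genes listed 6 were in the count tables, and 5 of these were higher in 1 tissue, 2 in fat, 2 in pituitary gland and 1 in muscle. The Frizzled receptor FZD4 was at 52.7 to 334 CPM in fat and 34.9 to 90.1 CPM in muscle (log2 1.47, SE 0.267, LRT adjusted p = 2.77e-07). FZD1 was also highest in fat (32.2 ± 16.5 CPM). FZD7, known from muscle stem cells, was at 27.3 to 224 CPM in muscle and 16.3 to 38.5 CPM in pituitary gland (log2 2.15, SE 0.352, adjusted p = 1.57e-08). Of 12 BMP and GDF receptor genes listed 9 were found and only 2 were higher in 1 tissue, a share under that of all genes. ACVRL1, the type I receptor for GDF2 and BMP10, was at 84.3 to 358 CPM in fat, 35.2 to 141 CPM in muscle and only 5.48 to 16.2 CPM in liver, the tissue with the reads of both ligands (log2 fat to muscle 1.37, SE 0.248, adjusted p = 2.23e-07). BMPR1B was at 15.4 to 31.5 CPM in pituitary gland and 2.50 to 13.1 CPM in muscle (log2 1.78, SE 0.299, adjusted p = 2.90e-08).

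**Figure D3:**
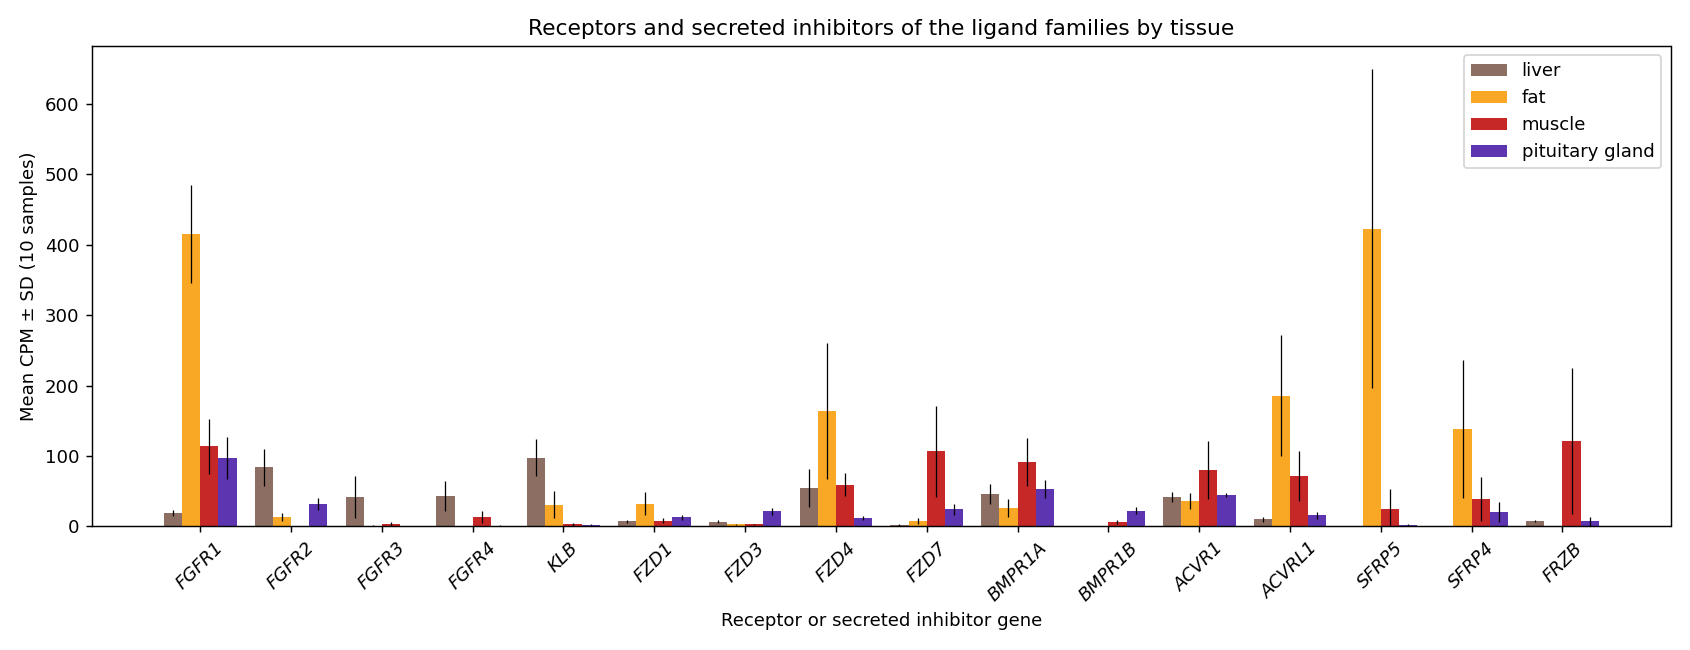
Mean CPM (bars, from 0) and SD (lines) over 10 samples per tissue for 13 receptor genes and 3 secreted WNT inhibitors. Bars are compared within a gene; FGFR1, FZD4, ACVRL1, SFRP5 and SFRP4 are tallest in fat, FGFR2, FGFR3, FGFR4 and KLB in liver, FZD7 and FRZB in muscle, and FZD3 and BMPR1B in pituitary gland.

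Of the 10 WNT inhibitors found (14 listed) 6 were called, where 37.1% of all genes were. These were 2 in fat, 2 in muscle, 1 in liver and 1 in pituitary gland. SFRP5, a secreted Frizzled-related protein that binds WNT5A, was at 219 to 934 CPM in fat and 3.81 to 100 CPM in muscle, with no overlap (log2 4.03, SE 0.477, LRT adjusted p = 5.67e-13). SFRP4 followed it in fat (138 ± 98.4 CPM, log2 to muscle 1.83, SE 0.434, adjusted p = 0.000141). FRZB, another member, was at 25.8 to 333 CPM in muscle and 5.61 to 10.4 CPM in liver (log2 3.97, SE 0.344, adjusted p = 1.06e-23). Of the 10 BMP and GDF inhibitors found (15 listed) 4 were called, about the share of all genes, 1 in each tissue. FSTL3, which binds activins and GDFs, was at 49.9 ± 32.1 CPM in fat, BAMBI, a decoy receptor, at 25.7 ± 5.48 CPM in pituitary gland, and CHRDL2 at 0 to 52.8 CPM in muscle. Of the 6 FGF inhibitors found (7 listed), only IL17RD was called, in pituitary gland (9.16 ± 3.43 CPM), a share under that of all genes.

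Genes known as targets of these pathways were called in 3 of 6 cases for WNT, 3 of 6 for BMP and 3 of 4 for FGF, against 37.1% of all genes. HAMP, the iron hormone hepcidin that BMP signals induce in liver, was at 149 to 2575 CPM in liver and at most 1.16 CPM elsewhere (LRT adjusted p against muscle = 5.47e-34). MSX1 was at 85.9 to 188 CPM in pituitary gland and 3.94 to 20.5 CPM in fat (adjusted p = 3.07e-29), and MSX2 was called in fat below 1 CPM. Among WNT targets, LGR5 was at 9.36 ± 4.84 CPM and LEF1 at 2.15 ± 1.31 CPM in liver, and CCND1 at 29.4 ± 4.16 CPM in pituitary gland. The FGF targets ETV1 (105 ± 43.9 CPM) and ETV5 (77.7 ± 21.7 CPM) were called in pituitary gland, and CYP7A1, the rate-limiting enzyme of bile acid synthesis that FGF signals repress, in liver (162 ± 199 CPM).

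Sex was the study's own contrast. No ligand passed the LRT for sex (adjusted p under 0.05) in any of the 4 tissues or over the 4 tissues. None passed it for the interaction of sex and tissue. The quasi-likelihood test and DESeq2 called no ligand in these comparisons either. They gave unadjusted p under 0.05 for 1 to 4 ligands per comparison. Among all 13148 genes that held for 771 to 2079 with the quasi-likelihood test and for 848 to 2132 with DESeq2. By the LRT, 0.175% of all genes passed for liver, 0.114% for fat, 0.517% for muscle and 0.745% for pituitary gland. Over the 4 tissues 1.69% passed and for the interaction 0.335%, so few calls could fall on 43 genes. Without the liver of bull 3 and the fat of bull 5, the genes called went from 23 to 61 for liver and from 15 to 18 for fat. They went from 222 to 171 over the 4 tissues and from 44 to 80 for the interaction. The only ligand among them was FGF14, for the interaction. Before adjustment, the LRT gave p under 0.05 for 4 ligands tested on liver (7.45% of all genes), 2 on fat (6.88%), 3 on muscle (11.0%), 3 on pituitary gland (9.27%), 5 over the 4 tissues (16.7%) and 4 for the interaction (8.58%). There was no ligand whose 5 cows and 5 bulls stood clear of each other in any tissue, against 0.548% of all genes for liver, 1.29% for fat, 1.65% for muscle and 1.34% for pituitary gland.

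**Figure D4:**
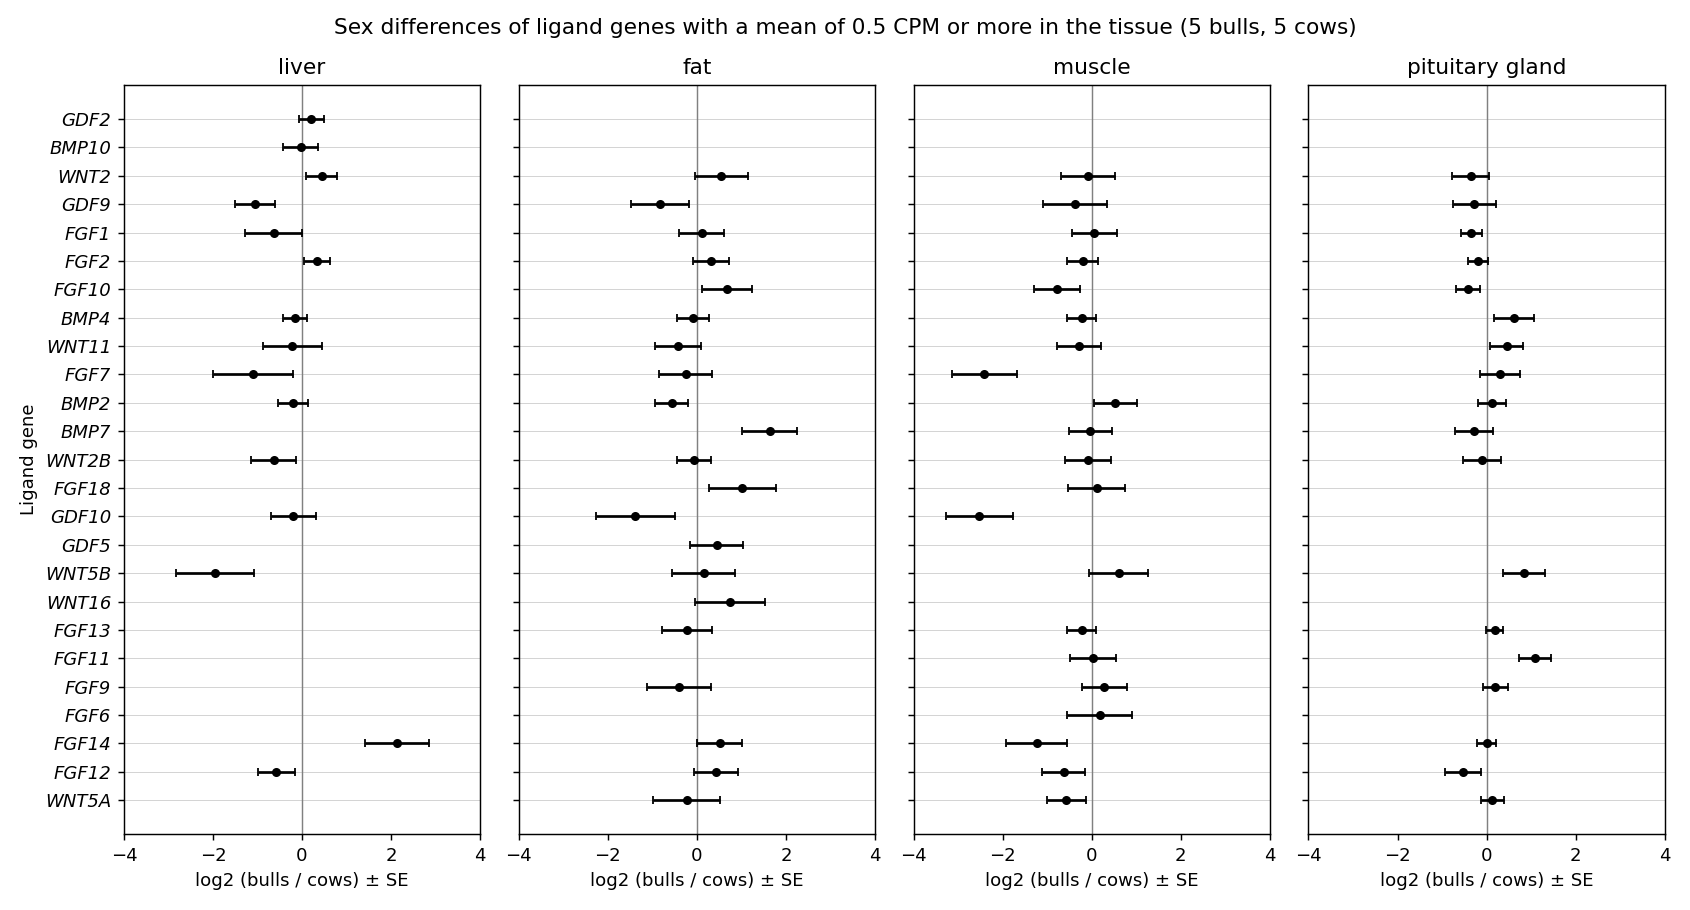
Log2 ratio of bulls to cows (points) with its standard error (bars) for ligand genes with a mean of at least 0.5 CPM in the tissue, 1 panel per tissue and 5 animals of each sex. Most points lie within 1 of 0 on this scale; FGF7 and GDF10 in muscle are lowest at -2.41 and -2.52, FGF14 in liver highest at 2.13, and none passed an adjusted p of 0.05.

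Within single tissues, the ligands with the smallest adjusted p were GDF10 and FGF7, both in muscle. GDF10 was at 4.55, 2.25, 2.03, 2.22 and 0.131 CPM in cows 1 to 5 and at 0.347, 0.210, 0.529, 0.166 and 0.691 CPM in bulls 1 to 5. Cows 1 to 4 lay above all bulls and cow 5 below them. The log2 ratio of bulls to cows was -2.52 (SE 0.762, LRT adjusted p = 0.0821), and it passed without cow 4 (adjusted p = 0.0358) or cow 5 (adjusted p = 0.00113). In those fits 553 and 131 of all 13148 genes passed for muscle, against 68 with all animals.

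FGF7 was at 53.0, 8.39, 10.5, 0.887 and 3.94 CPM in cows 1 to 5 and at 3.30, 3.15, 2.12, 4.31 and 1.93 CPM in bulls 1 to 5. The log2 ratio was -2.41 (SE 0.730, LRT adjusted p = 0.116). It passed in the same fits as GDF10, without cow 4 (adjusted p = 0.00158) or cow 5 (adjusted p = 0.0450). Without cow 1 it shrank to -0.99 (adjusted p = 0.670). The fibroblast and stroma markers were at a summed 9791 CPM in the muscle of cow 1, the most of any muscle library, and at 3269 to 8078 CPM in the other cows and 2752 to 6127 CPM in the bulls. Their part in the difference was not tested.

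In liver, FGF14 was at 1.13, 0.817, 1.41, 0.421 and 0.137 CPM in cows 1 to 5 and at 0.429, 3.04, 0.644, 3.82 and 9.25 CPM in bulls 1 to 5. The log2 ratio was 2.13 (SE 0.724, LRT adjusted p = 0.268) and 2.38 without the liver labelled bull 3 (adjusted p = 0.0946), but it fell to 1.35 without bull 5, the highest sample (adjusted p = 0.652). Its ratio was 0.51 for fat, -1.24 for muscle and -0.00 for pituitary gland, and the interaction gave an adjusted p of 0.108. Without the liver of bull 3 and the fat of bull 5 the interaction passed (adjusted p = 0.0327), and it also passed without cow 4. Over all genes, 80 and 197 passed the interaction in those fits, against 44 with all libraries. GDF9 was at 2.05 ± 0.850 CPM in the livers of cows and 0.951 ± 0.304 CPM in those of bulls (log2 -1.06, SE 0.445, adjusted p = 0.477), and WNT5B at 0.824 ± 0.834 and 0.187 ± 0.137 CPM (adjusted p = 0.484).

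BMP7 in fat was at 5.15, 6.69, 3.20, 10.4 and 2.75 CPM in cows 1 to 5 and at 13.6, 10.4, 42.5, 19.4 and 2.71 CPM in bulls 1 to 5. Bulls 1, 3 and 4 lay above every cow, bull 2 just below cow 4, and bull 5, whose fat library is in doubt, below all the cows. The log2 ratio was 1.63 (SE 0.615, LRT adjusted p = 0.511) and 1.91 without that library (adjusted p = 0.119), but it fell to 1.02 without bull 3 (adjusted p = 0.862). The summed fibroblast and stroma markers moved with BMP7 in several fat libraries, at 46284 and 40976 CPM in bulls 3 and 4, 11819 CPM in bull 5, and 8975 and 8882 CPM in cows 3 and 5. Their median was 26286 CPM in bulls and 17522 CPM in cows, and their part in the difference was not tested. BMP2 in fat was at 20.5 ± 3.52 CPM in cows and 14.0 ± 6.31 CPM in bulls (log2 -0.57, SE 0.378, adjusted p = 0.813), and GDF10 there had a single high cow and a ratio of -1.39 (SE 0.887) that turned to 0.34 without cow 4.

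In pituitary gland FGF11 was at 1.01, 1.53, 0.942, 1.25 and 1.30 CPM in cows 1 to 5 and at 2.99, 1.46, 3.21, 1.94 and 3.39 CPM in bulls 1 to 5. Bull 2 fell among the cows and the other bulls above them (log2 1.09, SE 0.365, LRT adjusted p = 0.154). WNT5B (log2 0.85, SE 0.470, adjusted p = 0.582) and FGF10 (log2 -0.42, SE 0.269, adjusted p = 0.643) followed among pituitary ligands with a mean of at least 0.5 CPM. The ligands that marked a tissue did not pass a sex test in it. The ratio of bulls to cows was 0.21 (SE 0.280) for GDF2 and -0.03 (SE 0.391) for BMP10 in liver, 0.18 (SE 0.729) for FGF6 in muscle, and -0.00 (SE 0.204) for FGF14 and 0.13 (SE 0.261) for WNT5A in pituitary gland.

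Among the 64 receptor, inhibitor and target genes found, 4 passed the LRT for sex in a tissue, 3 of them in pituitary gland, where 0.745% of all genes passed, and 1 in liver, where 0.175% did. The lists were chosen with earlier results of these data known. The liver gene, CYP7A1, had already been named by the study for sex in liver. In pituitary gland SFRP5 was higher in bulls (1.15 to 6.13 CPM) than in cows (0.236 to 0.684 CPM, log2 2.66, SE 0.542, adjusted p = 0.000972). FGFR4 was also higher in bulls there (0.756 to 2.74 against 0.156 to 0.507 CPM, log2 1.87, SE 0.510, adjusted p = 0.0345), and ACVR1C, a type I receptor of activins and GDFs, was lower (0.458 to 1.05 against 1.17 to 3.55 CPM, log2 -1.72, SE 0.415, adjusted p = 0.0102). CYP7A1 in liver was at 10.9 to 82.7 CPM in bulls and 52.4 to 498 CPM in cows (log2 -3.14, SE 0.620, adjusted p = 0.00448), and without the liver of bull 3 the ratio was -3.92 (adjusted p = 4.73e-06). ROR2 (adjusted p = 0.0266), BMPR1B (0.0357) and FRZB (0.0421) passed the interaction test. With the quasi-likelihood test only CYP7A1 passed, over the 4 tissues (adjusted p = 0.000111), and the others had adjusted p of 0.104 to 0.321. The mean of CYP7A1 was 162 CPM in liver and 0.0371 CPM in fat, the next tissue. Its result over the 4 tissues therefore rests on the liver libraries. NKD1, a WNT target, passed only without the doubted libraries, for sex in liver (log2 -2.01, adjusted p = 0.0101) and for the interaction (adjusted p = 0.0206).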

How the data were processed

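RNA-seq libraries from 4 tissues of 5 cows and 5 bulls were used, with the group and animal of each taken from the labels. The deposited values are raw read counts per gene symbol, which the authors made with Trimmomatic, Tophat2 with Bowtie2, SAMtools and HTSeq on the bosTau7 assembly. The HTSeq mode and strand setting are not given in the sources used here. A row named null (0.114 to 2.69% of reads) and the 5 HTSeq counters were left out, and 13148 of 13570 genes had at least 1 read and were tested.

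Counts were analysed with edgeR 4.0.16 in R 4.3.3 (TMM factors, prior count 0.125) by likelihood ratio tests with Benjamini-Hochberg adjustment at 0.05 over all genes tested. Sex was fitted within each tissue, over the 40 samples with tissue as a term, and as an interaction with tissue. The 6 tissue pairs were contrasts of the fit with both terms. A count of 3 reads was the floor, taken at 0.443 CPM, its mean worth in muscle, where libraries were shallowest. The 95% intervals of pooled ratios cover counting error only. By the labels, the 5 animals of a group were separate animals, which the liver labelled bull 3 puts in doubt for liver.

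The alternatives were edgeR's quasi-likelihood test, DESeq2 1.42.0, RLE factors, filterByExpr, leaving out 1 animal in turn, an animal block (fixed for tissue pairs, a random block in limma 3.58.1 for sex over the tissues) and leaving out the liver of bull 3 and the fat of bull 5. Samples of 1 animal share its ear tag in the labels, which pairs them, and their deviations from group means correlated at medians of 0.0285 to 0.324 over the tissue pairs. The animal block was not part of the main design.

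The ligands and the receptor, inhibitor, target and marker lists were chosen with earlier results of these data known. Ligands were named by rule if called higher in 1 tissue with a mean of at least 1 CPM there (up to 8 per tissue), called for sex, among the 3 with the smallest p for sex in a tissue (mean of at least 0.5 CPM), among the 6 with the highest mean, or under 3 reads throughout. From each pathway list up to 3 genes called in 1 tissue and any called for sex were named. The other ligands and NKD1 were named after their values were seen. Scripts were tested on simulated counts. Figures were drawn with matplotlib 3.10.9.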

Additional observations from a re-analysis of the deposited data

Results flagged for a closer look

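In 7 of 91 groups of 5 animals that were checked, 1 sample stood apart from the other 4 by Dixon's criterion (gap over range above 0.71). At 5% the criterion would give 4.55 for normal values in separate groups. CPM are scaled counts and many groups share libraries, so that number is only a rough guide. FGF1 in the fat of bulls was at 182 CPM in bull 4 and at 66.8 to 89.2 CPM in the other bulls. FGF1 in the muscle of cows was at 73.0 CPM in cow 1 and at 16.3 to 29.8 CPM in the others. The same muscle library held 53.0 CPM of FGF7, against 0.887 to 10.5 CPM in the other cows. WNT5A in the fat of cow 1 was at 9.63 CPM, where the other cows had 0.574 to 2.68 CPM. GDF2 in the liver of cow 1 was low, at 18.7 CPM against 29.9 to 33.8 CPM. GDF10 in the fat of cow 4 was at 14.0 CPM and at 0.394 to 2.78 CPM in the other cows. FGF14 in the muscle of bull 4 was at 2.15 CPM and in the other bulls at 0.695 to 1.06 CPM. Cow 1 accounts for 4 of the 7 values, of which those of FGF1 and FGF7 come from the same muscle library.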

How the results depend on the processing

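Counts of ligands between tissues and per tissue stayed within 1.5 times their value under every alternative run. Leaving out 1 animal gave 0 to 2 ligands called for sex in muscle (FGF7 and GDF10 without cow 4 or cow 5). It gave 0 to 1 over the 4 tissues (FGF7 without cow 4) and 0 to 1 for the interaction (FGF14 without cow 4). Calls over all 13148 genes rose in those fits. Without cow 4 they went from 68 to 553 in muscle, from 222 to 686 over the 4 tissues and from 44 to 197 for the interaction. Without cow 5 they were 131 in muscle. Without the liver of bull 3 and the fat of bull 5 the interaction gave 1 ligand, FGF14, among 80 genes. The ratio of bulls to cows of GDF10 in fat ranged from -1.68 to 0.34 and turned without cow 4. Ligands called in fat numbered 6 to 8 (WNT16 lost, FGF18 gained), in liver 2 to 3 and in muscle 2 to 3 (GDF6 gained). Pituitary gland had 3 to 5, with WNT10A gained with the quasi-likelihood test and without the 2 libraries. FGF22 was lost there with filterByExpr, which removed this low gene before testing. With the animal as a replicate block, 25 ligands differed between fat and liver (26 in the main fit), 19 between fat and muscle (19) and 25 between fat and pituitary gland (24). Between liver and muscle 25 differed (26), between liver and pituitary gland 28 (28) and between muscle and pituitary gland 18 (17). Counts over all genes with this block are not given here. No ligand was called for sex over the 4 tissues with the random block. That fit called only 8 of all 13148 genes, so few calls could fall on the ligands. Between tissues the block changed the call for GDF15 (fat to liver), GDF9 (fat to pituitary gland), BMP3 (liver to muscle) and FGF16 (muscle to pituitary gland) and for no other ligand. For the other calls that were lost or gained the cause was not tested. At these depths 10 ligands stayed under 3 reads in every library, and nothing can be said of their differences.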
